A study of Mus musculus with 8 samples.

Results

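The homeobox gene clusters of the mouse genome were examined for DNA methylation in liver. The set comprised 33 of the 33986 annotated gene regions with enough positions. It held 10 genes of the Hoxb cluster on chromosome 11, 9 of the Hoxc cluster on chromosome 15, 9 of the Hoxd cluster with the neighbouring Evx2 on chromosome 2, the Dlx1 and Dlx2 pair on chromosome 2, and the Dlx3 and Dlx4 pair on chromosome 11. Each gene region was the RefSeq span of the gene in mm10 with 2 kb on each side, and the member regions together held 18105 of the 30729668 cytosine positions read. Of the member regions, 15 pairs overlapped, so neighbouring genes were not independent. The Hoxa cluster, on a chromosome that was not analysed here, is not part of the set.

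Liver DNA was read by whole-genome bisulfite sequencing, in which the methylation level of a cytosine is the percentage of its reads that stay unconverted. All libraries came from male C57BL/6J mice with the genotype given as WT. The mice were bought at 8 weeks of age and then kept for 28 weeks on 1 of 2 diets, a normal diet or a diet rich in fat, cholesterol and fructose. The 4 libraries titled NASH (nonalcoholic steatohepatitis) were compared with the 4 titled WT, called ND (normal diet) after the table's column names. The treatment field of the labels runs against the titles, where WT-titled samples are given NASH as treatment and NASH-titled samples WT. The titles and column names were used, and every direction below would be reversed if the treatment field were right. The labels do not state whether each library is a different mouse, so p-values measure the spread between libraries only.

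Hox genes encode transcription factors that give cells their position along the body axis of the embryo. They lie in clusters in which paralogue group 1 is at the anterior end and group 13 at the posterior end, and this order matches the order of their expression domains from hindbrain to tail. Dlx genes encode homeobox factors of the forebrain, jaw, skin and placenta, and occur as pairs. In cells that do not use them, such clusters usually lie in broad CpG-rich domains that are free of DNA methylation and bound by Polycomb complexes.

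The 250 bases before the start set by a RefSeq promoter are printed for 4 members (GRCm38.p6, the assembly behind mm10). They run 5′ to 3′ on the plus strand, with every CpG in capitals. That start can lie inside the gene span: the Dlx1 span begins at 71528113, before the printed stretch. RefSeq promoter sequences matched 16 of the 33 members. The Dlx1 promoter (chr2:71529195-71529444) belongs to the start window with the lowest level, and the Hoxd4 promoter (chr2:74721728-74721977) to the start window with the highest. The Hoxb4 (chr11:96318017-96318266) and Hoxb1 (chr11:96365508-96365757) promoters are shown because their gene regions were higher in NASH, and were chosen after their values were seen.
Dlx1: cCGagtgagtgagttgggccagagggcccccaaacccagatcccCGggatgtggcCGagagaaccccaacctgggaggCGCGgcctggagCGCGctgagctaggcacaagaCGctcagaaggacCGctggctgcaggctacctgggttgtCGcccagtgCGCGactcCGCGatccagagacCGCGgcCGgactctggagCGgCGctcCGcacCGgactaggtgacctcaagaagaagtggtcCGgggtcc
Hoxd4: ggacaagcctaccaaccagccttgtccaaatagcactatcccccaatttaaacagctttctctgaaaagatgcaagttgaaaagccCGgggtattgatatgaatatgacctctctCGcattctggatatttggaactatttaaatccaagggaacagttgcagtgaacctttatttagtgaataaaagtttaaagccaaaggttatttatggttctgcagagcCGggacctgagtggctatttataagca
Hoxb4: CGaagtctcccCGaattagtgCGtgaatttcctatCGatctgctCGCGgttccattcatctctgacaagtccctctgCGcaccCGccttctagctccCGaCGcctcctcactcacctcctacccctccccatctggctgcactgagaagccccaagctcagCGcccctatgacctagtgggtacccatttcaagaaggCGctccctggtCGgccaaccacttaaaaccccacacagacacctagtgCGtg
Hoxb1: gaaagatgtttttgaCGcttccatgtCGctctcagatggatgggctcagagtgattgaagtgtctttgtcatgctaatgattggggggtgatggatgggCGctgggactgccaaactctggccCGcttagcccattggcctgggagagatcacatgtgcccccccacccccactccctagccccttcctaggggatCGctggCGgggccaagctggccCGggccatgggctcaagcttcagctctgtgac

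These promoters differ in CpG content. The Dlx1 stretch holds 22 CpGs, and 99.4% of its levels over the 8 libraries were an exact 0, with only NASH library 2 above 0, at 2.27%. The Hoxb4 stretch holds 14 CpGs and averaged 6.09% ± 3.53 in ND and 7.62% ± 1.63 in NASH (here and below ± is the SD over n = 4 libraries). The Hoxb1 stretch holds 7 CpGs and averaged 22.9% ± 6.99 in ND (13.5% to 30.4%) and 33.3% ± 8.40 in NASH (23.9% to 41.6%), so the groups overlapped. The Hoxd4 stretch, with 3 CpGs, averaged 31.9% ± 8.15 in ND and 30.5% ± 7.84 in NASH. Over the 17 member promoters the median was 13 CpGs (2 to 31), against 6 over all 32851 RefSeq promoter sequences.

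Over all positions the 8 libraries averaged 71.0% to 72.3%. Depth is unknown, because only levels were deposited. Between 12.3% and 13.1% of a library's positions were at exactly 0, which can also stand for a position that no read covered. No pair of libraries held the same values, the share of sampled positions with equal levels being 31.6% to 36.3%.

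The homeobox regions were among the least methylated gene regions of the chromosomes read (1 to 4, 10 to 19 and chromosome 5 up to position 117098872). Their levels over the 8 libraries ran from 4.71% in Hoxc11 to 23.7% in Dlx4, with a median of 10.6%, against 73.5% over all gene regions. Dlx4, the highest member, still had a level above only 6.21% of all gene regions. Levels differed along the Hox clusters by paralogue group. The 8 regions of groups 1 to 4 had a median of 16.2% (11.8% to 23.5%), the 8 of groups 5 to 8 had 11.8% (7.86% to 20.4%) and the 12 of groups 9 to 13 had 7.69% (4.71% to 12.3%). In Hoxb the highest region was Hoxb1 (23.5%), a gene of the hindbrain, and the lowest was Hoxb9 (7.54%). In Hoxd the highest was Hoxd1 (18.5%) and the lowest Hoxd11 (6.33%). The Hoxd1 level was uneven: the window around its start (1 kb on each side) was at 5.04%, and that around its high-coordinate end at 68.7%. In Hoxc the highest was Hoxc4 (14.1%) and the lowest Hoxc11. The Dlx pairs stood apart from each other: Dlx1 and Dlx2, which act in forebrain interneurons, were at 6.05% and 7.37%, while Dlx3, a gene of skin, hair and placenta, and Dlx4 were at 20.9% and 23.7%.

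**Figure D1:**
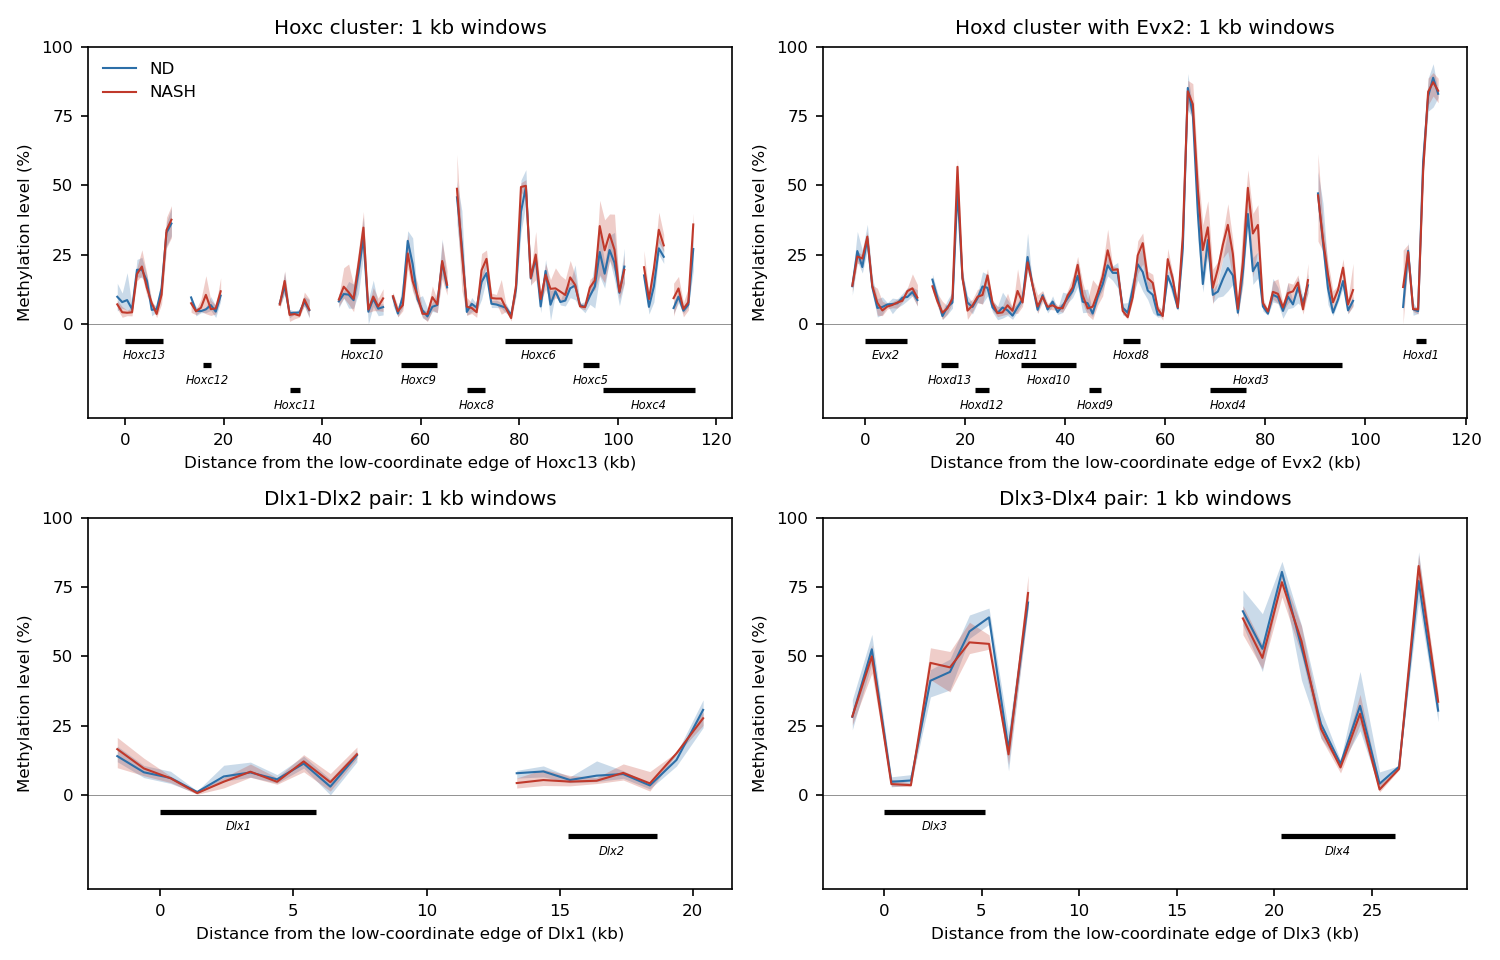
Mean methylation level (%) of 1 kb windows along the Hoxc, Hoxd, Dlx1-Dlx2 and Dlx3-Dlx4 loci, against distance (kb) from the low-coordinate edge of the first gene; lines are group means of 4 libraries, bands span the lowest to highest library, gaps are stretches outside the member regions or with under 6 positions, and black bars are gene spans. Most Hoxc and Hoxd windows lie under 15% with narrow peaks between them, and the NASH and ND lines run close together over the Dlx pairs.

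Unmethylated valleys were defined as runs of 1 kb windows below 15% (mean of the 8 libraries), at least 5 kb long. Member regions were touched by 16 of them, covering 148 kb when counted at full length, also where a valley ran beyond the member regions. Hoxc had 7, covering 65 kb, of which the longest ran for 21 kb over Hoxc11 and Hoxc10, genes of the lumbar and hindlimb level. Hoxd had 5, covering 42 kb, and the longest, of 11 kb, lay over Evx2, a homeobox gene of limb and spinal cord. Dlx1 and Dlx2 shared a single valley of 21 kb that spanned both genes and the stretch between them. Hoxb had 3, covering 20 kb, beside Hoxb13, at Hoxb9 with Hoxb8, and at Hoxb8 with Hoxb7. The valley beside Hoxb13 ran from 96198001 to 96207000, past the high-coordinate end of the gene at 96196610 and mostly outside the member region. None lay at Hoxb6 to Hoxb1, and Dlx3-Dlx4 had none.

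Within the valleys the libraries were close. The rule takes windows with a low mean over both groups, which itself limits how large a difference inside a valley can be. Weighted by positions, the 16 valleys averaged 6.99% ± 0.261 in ND (6.70% to 7.33%) and 7.22% ± 0.248 in NASH (at most 7.53%), and the groups overlapped. By limma with Benjamini-Hochberg adjustment over the 1329 valleys of the table, none of the 16 was called (0 of 1329 were, 0%), the smallest adjusted p was 0.834, and none had an unadjusted p under 0.05. At the Hoxc13 valley, 5 kb over the low-coordinate end of a gene of hair and nail, ND library 4 was at 12.9% and the other ND libraries at 5.65% to 6.08%, while the NASH libraries were at 4.02% to 4.78%. That valley had the only groups that did not overlap (1.73% of all valleys had every NASH library below every ND library). Its exact permutation p was 0.0286 (two-sided, the smallest this design allows), and 0.457 after adjustment over the 16 valleys.

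With the levels as deposited, no CpG-dense window was highly methylated. Of the 343 windows touching member regions, 128 were CpG-dense, with at least 60 listed positions (both strands counted), and 0 of these were at 50% or more, against 32.3% of the 30526 CpG-dense windows of the table. With every exact 0 left out, 6 reached 50%. The 13 CpG-dense windows at 15% or more included 10 in Hoxb. The highest, at 33.7%, lay in Hoxb3 and its antisense gene Hoxb3os (chromosome 11, 96344001 to 96345000). Its libraries were at 20.3%, 14.5%, 33.3% and 34.1% in ND and at 33.5%, 41.2%, 36.0% and 57.1% in NASH, so the groups overlapped. Windows at 50% or more were CpG-sparse and numbered 2 in Hoxb, 7 in Hoxd, 9 in Dlx3-Dlx4 and 0 in both Hoxc and Dlx1-Dlx2.

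Against this low background, 6 of the 33 member regions were higher in NASH and 0 were lower (limma, adjusted over all gene regions, adjusted p under 0.05). Over all 33986 gene regions 4.17% were called, 2.77% as higher and 1.39% as lower. The 6 were Hoxb3, Hoxb1, Hoxb4, Hoxb6, Hoxd4 and Hoxd3. Of the 8 regions of groups 1 to 4, 5 were called, with a median difference (NASH minus ND) of 3.92 percentage points. Of the 8 of groups 5 to 8, 1 was called, with a median of 1.72, and of the 12 of groups 9 to 13, 0 were called, with a median of 1.10, although 4 of these 12 (3 higher, 1 lower) had an unadjusted p under 0.05, as had 20% of all gene regions. The median over all gene regions was -0.385 points. Whether the paralogue groups differ from each other was not tested.

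**Figure D2:**
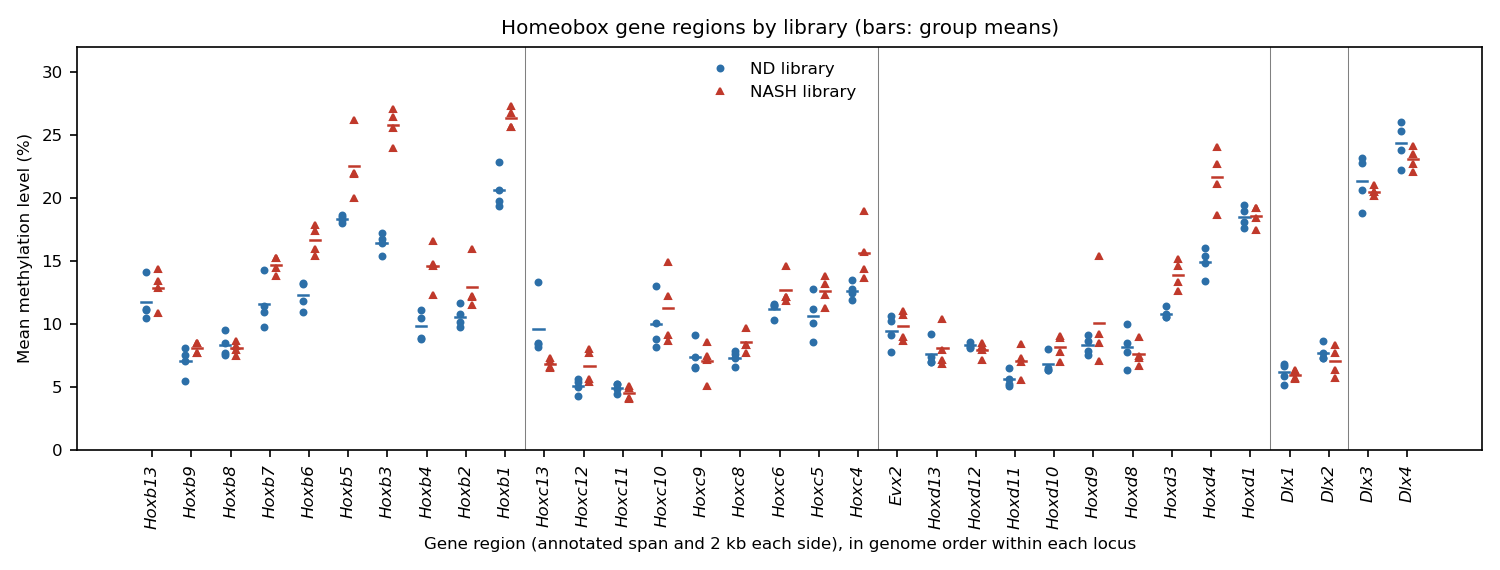
Mean methylation level (%) of each of the 33 gene regions in every library, in genome order within the 5 loci; circles are ND libraries, triangles NASH libraries, and bars the group means. Hoxb3, Hoxb1, Hoxd4 and Hoxb6 show NASH libraries clear of the ND libraries, while the Dlx regions, 6 of the 9 Hoxc regions and all posterior regions but Hoxc13 overlap.

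Among the anterior genes, Hoxb3, which patterns hindbrain and neck, showed the largest difference of the set. Its region (chromosome 11, 96305101 to 96349930, 1990 positions) was at 15.4%, 16.5%, 17.2% and 16.7% in ND libraries 1 to 4 and at 25.6%, 24.0%, 26.5% and 27.1% in NASH libraries 1 to 4. Every NASH library lay above every ND library. The rise was 9.32 points (SE 0.713, limma adjusted p = 0.00285), and only 0.4% of gene regions had a larger one. It passed without each library in turn (adjusted p at most 0.0159). With every exact 0 left out the difference was 8.29 and the adjusted p 0.0544.

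The Hoxb4 region lies wholly inside that of Hoxb3. Hoxb4, known for expanding blood stem cells, was at 10.5%, 8.83%, 11.1% and 8.80% in ND and at 16.6%, 12.3%, 14.6% and 14.8% in NASH. The groups did not overlap, and the rise was 4.74 points (SE 0.939, limma adjusted p = 0.0351). The call was lost without any 1 of the libraries other than NASH library 2 (adjusted p 0.0540 to 0.0956). The gene span without its flanks differed by 2.91 points (adjusted p = 0.453), and the region with every 0 left out by 8.15 (adjusted p = 0.0443).

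Hoxb1, a gene of the fourth hindbrain segment, was at 19.4%, 19.8%, 22.8% and 20.7% in ND and at 26.7%, 27.3%, 25.6% and 25.6% in NASH. All NASH libraries were above all ND libraries, and the rise was 5.66 points (SE 0.800, limma adjusted p = 0.0114). It passed without each library in turn (adjusted p at most 0.0383), but the span without flanks did not pass (3.90 points, adjusted p = 0.142), nor did the region with every 0 left out (5.93 points, adjusted p = 0.248). Hoxb2, which lies between Hoxb3 and Hoxb1 and also acts in the hindbrain, averaged 10.6% ± 0.828 in ND and 12.95% ± 2.02 in NASH, with overlapping groups (limma adjusted p = 0.224).

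Of the Hoxd genes, Hoxd4 and Hoxd3 were called, and the Hoxd4 region lies inside that of Hoxd3. Hoxd4, which acts in the hindbrain and upper spine, was at 13.4%, 15.4%, 14.9% and 16.1% in ND and at 21.1%, 18.7%, 24.0% and 22.7% in NASH. The groups did not overlap, and the rise was 6.71 points (SE 1.14, limma adjusted p = 0.0211). The call was lost without NASH library 4 (adjusted p = 0.0651) and without ND libraries 1, 2 or 3 (0.0654, 0.0512 and 0.0579), and with every 0 left out (4.91 points, adjusted p = 0.124).

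Hoxd3 was at 10.5%, 10.8%, 10.5% and 11.4% in ND and at 13.3%, 12.6%, 14.6% and 15.1% in NASH. The rise of 3.10 points (SE 0.570, limma adjusted p = 0.0271) was lost without any 1 of 6 libraries (all but NASH libraries 1 and 2, adjusted p 0.0546 to 0.0821) and with every 0 left out (2.65 points, adjusted p = 0.301). Hoxd1, at the anterior end of the same cluster, averaged 18.5% ± 0.824 in ND and 18.6% ± 0.821 in NASH, a difference of 0.0578 points (SE 0.552). Hoxc4, the only Hoxc member of groups 1 to 4, was at 11.9% to 13.5% in ND and at 13.6% to 18.9% in NASH, without overlap, yet did not pass (3.03 points, SE 1.08, limma adjusted p = 0.172), and without NASH library 4 its difference was 1.93 points.

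Among the central genes, Hoxb6, active in trunk and limb, was called. It was at 10.9%, 13.2%, 13.3% and 11.8% in ND and at 15.9%, 15.4%, 17.4% and 17.8% in NASH, without overlap. Its rise was 4.36 points (SE 0.727, limma adjusted p = 0.0199), and the call was lost without NASH library 4, ND library 1 or ND library 4 (adjusted p 0.0566, 0.0555 and 0.0581). The span without flanks differed by 2.35 points (adjusted p = 0.226), and the region with every 0 left out by 7.58 (adjusted p = 0.0443). Hoxb5 was at 18.0% to 18.7% in ND and at 20.001% to 26.2% in NASH, without overlap, but did not pass (4.16 points, adjusted p = 0.100), and Hoxb7 overlapped (3.07 points, adjusted p = 0.111). Hoxb8, the remaining Hoxb gene of groups 5 to 8, was at 8.28% ± 0.895 in ND and 8.08% ± 0.507 in NASH. Hoxc6, with a difference of 1.48 points, brought the regions whose NASH libraries all lay above the ND libraries to 9 of 33 (6.60% of all gene regions). Hoxc5, Hoxc8 and Hoxd8 differed by 1.97, 1.203 and -0.576 points with overlapping groups.

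In the posterior regions the groups overlapped, except at Hoxc13. Hoxc13 was at 8.13%, 8.42%, 8.44% and 13.3% in ND and at 6.46%, 6.57%, 7.25% and 7.07% in NASH. It was the only member whose NASH libraries all lay below the ND libraries (1 of 33, against 7.15% of all gene regions), and its difference of -2.74 points did not pass (limma adjusted p = 0.222), with ND library 4 far above the other libraries. The other differences of groups 9 to 13 ran from -0.422 points in Hoxc11 to 1.75 in Hoxd9, which acts in limb and lumbar spine. Hoxd11 averaged 5.61% ± 0.647 in ND and 7.05% ± 1.16 in NASH (adjusted p = 0.235), and Hoxb9 7.01% ± 1.11 and 8.07% ± 0.468 (adjusted p = 0.339). The Hoxb9 difference of 1.06 points was 0.540 without ND library 3. Hoxd13, the digit gene, and Hoxb13, of tail and prostate, differed by 0.418 and 1.14 points, and Evx2 by 0.410.

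The 4 Dlx regions all had lower means in NASH, and 0 passed (the smallest limma adjusted p was 0.480, and 0 had an unadjusted p under 0.05). A higher mean was the less common direction over all gene regions (13088 of 33986). Dlx4 was at 26.1%, 23.8%, 22.3% and 25.3% in ND and at 24.1%, 23.5%, 22.0% and 22.7% in NASH, a difference of -1.25 points. Dlx3 was at 18.8% to 23.2% in ND and 20.1% to 21.0% in NASH. Dlx2 was at 7.27% to 8.63% and 5.72% to 8.34%, and Dlx1 at 5.15% to 6.84% and 5.61% to 6.30%. All 4 overlapped. The direction did not hold for 3 of the 4. Dlx1 differed by -0.166 points, but by 0.00299 without ND library 2 and 0.0711 without ND library 3. Dlx2 went from -0.702 to 0.0659 without flanks, and Dlx3 from -0.830 to 0.707 with every 0 left out.

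The mean of the groups 1 to 4 regions minus that of the groups 9 to 13 regions, a contrast chosen after the data were seen, describes the slope along each cluster within a library. In Hoxb it was 5.23, 4.89, 6.93 and 3.002 points in ND and 9.61, 7.95, 9.71 and 10.5 in NASH. In Hoxd it was 7.12 to 7.75 points in ND and 8.47 to 11.2 in NASH. In both clusters every NASH library had a steeper slope than every ND library. In Hoxc, where group 4 is represented by Hoxc4 alone, the range of 4.28 to 6.74 in ND overlapped that of 5.07 to 11.3 in NASH. The contrast reuses the regions already called, so it restates those calls and is no separate support. In Hoxb the posterior side is Hoxb13 and Hoxb9 only. In Hoxd the called Hoxd4 region lies inside that of Hoxd3, and Hoxd1 differed by 0.0578 points.

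**Figure D3:**
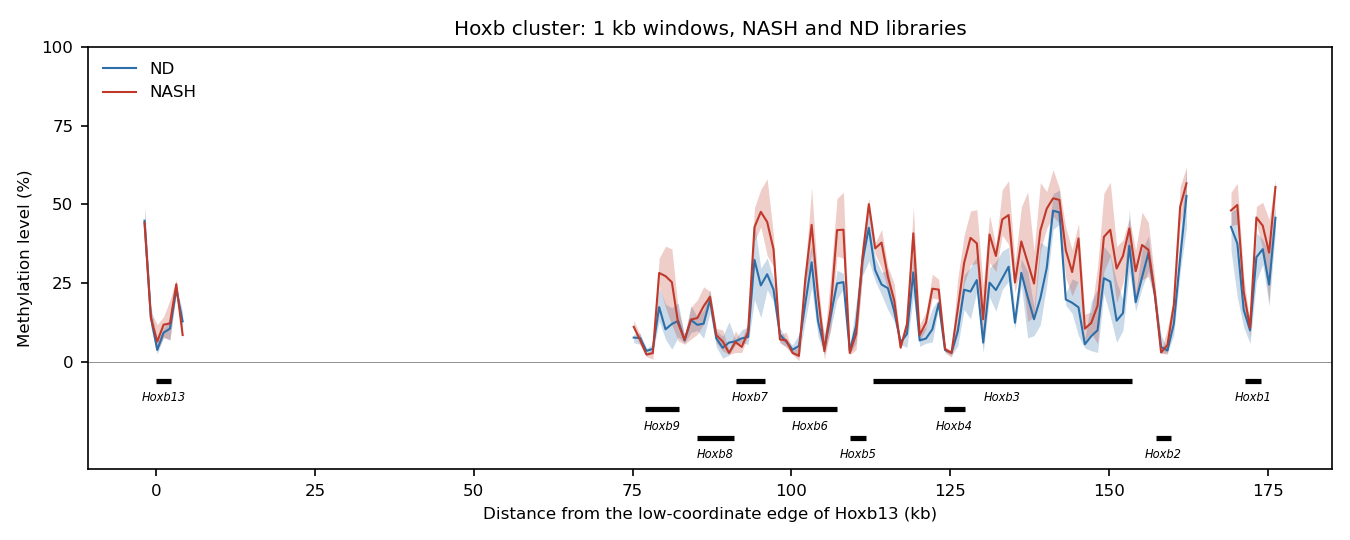
Mean methylation level (%) of 1 kb windows along the Hoxb cluster against distance (kb) from the low-coordinate edge of Hoxb13; lines are group means of 4 libraries, bands span the lowest to highest library, gaps are stretches outside the member regions or with under 6 positions, and black bars are gene spans. The troughs near 5% coincide in both groups, and the NASH line is higher over the peaks between Hoxb9 and Hoxb1.

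At the level of 1 kb windows, 0 of the 343 were called (limma, adjusted over all windows, of which 0.000248% were called). The smallest adjusted p was 0.114, and 84 had an unadjusted p under 0.05, 74 of them higher in NASH, against 10.9% of all windows. In 34 of the 343 every NASH library lay above every ND library, against 2.78% of all windows. Of the 34, 24 were among the 103 Hoxb windows, 9 among the 106 Hoxd windows and 1 among the 95 Hoxc windows, while the Dlx windows had 0. Every NASH library lay below every ND library in 5 of the 343, against 3.71% of all windows.

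These windows were mostly those of intermediate level. Among windows at 15% to 50%, every NASH library was above every ND library in 21 of 60 in Hoxb (median difference 10.9 points), 6 of 31 in Hoxd (4.44 points) and 1 of 30 in Hoxc (2.89 points). Over the whole table this held for 14.4% of windows at that level, with a median difference of 2.18 points. Among the 195 windows under 15% it held for 4, against 1.91% of such windows in the table.

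**Figure D4:**
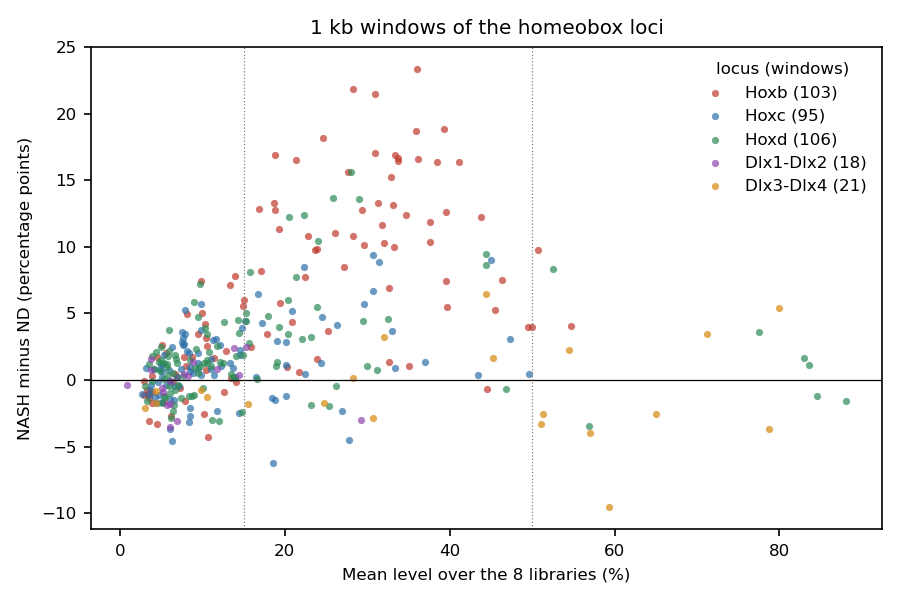
Difference between group means (NASH minus ND, percentage points) of each of the 343 windows of 1 kb against its mean level over the 8 libraries (%), coloured by locus; dotted lines mark 15% and 50%. Windows under 15% scatter around 0, and Hoxb windows between 15% and 50% lie mostly above 0, up to 23.4 points.

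Among windows of at least 20 positions, the largest non-overlapping rise was in Hoxb7 (chromosome 11, 96289001 to 96290000, 46 positions), at 14.1%, 23.7%, 29.8% and 29.7% in ND and 54.8%, 43.4%, 42.9% and 49.6% in NASH. The difference was 23.4 points (SE 4.11, limma adjusted p = 0.120). Inside Hoxb3, the window at 96334001 to 96335000 was at 24.4% to 36.6% in ND and 42.5% to 54.1% in NASH (18.8 points, adjusted p = 0.120). Another Hoxb3 window, at 96327001 to 96328000, was at 23.0% to 35.2% in ND and 40.3% to 54.7% in NASH (18.7 points, adjusted p = 0.153). None of the 3 lay in a valley. With every exact 0 left out, these differences were 8.55, 8.34 and 15.98 points.

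The largest non-overlapping falls were smaller. A window over the high-coordinate end of Dlx3 (chromosome 11, 95125001 to 95126000) was at 61.6% to 67.5% in ND and 52.6% to 57.8% in NASH (-9.56 points, limma adjusted p = 0.258). A window beside Hoxb13 that lies in the predicted gene Gm30134 (96198001 to 96199000) was at 9.92% to 15.9% and 7.39% to 9.62% (-4.32 points, adjusted p = 0.244). A Hoxb3 window of low level (96311001 to 96312000) was at 5.495% to 7.002% and 4.11% to 5.26% (-1.68 points, adjusted p = 0.254). With every exact 0 left out, the window beside Hoxb13 differed by -2.83 points and this one by -7.36.

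No gene start set by a RefSeq promoter passed. In the 17 start windows of 16 members with a RefSeq promoter (1 kb on each side), 0 were called by limma, against 0.857% of all start windows, and 1, that of Hoxb1, had an unadjusted p under 0.05. The Hoxb1 start was at 14.0%, 14.0%, 13.8% and 13.9% in ND and at 18.5%, 19.7%, 16.7% and 16.2% in NASH (3.88 points, SE 0.899, adjusted p = 0.0918). The starts of the called Hoxb4, Hoxd3 and Hoxd4 differed by 0.335, 0.416 and 3.59 points with overlapping groups. The called Hoxb3 and Hoxb6 had no matching RefSeq promoter. Which of their ends is the start was therefore not set, and both ends are given below. The levels of the starts ran from 2.49% in Dlx1 to 22.4% in Hoxd4.

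Without a strand for the other members, both ends of every gene were tested, and 2 of the 66 end windows were called, both higher in NASH, against 0.351% of all end windows called and 0.254% called as higher. The high-coordinate end of Hoxb7 was at 18.8%, 24.7%, 27.9% and 29.7% in ND and at 53.9%, 41.0%, 45.8% and 49.1% in NASH (22.2 points, SE 3.25, limma adjusted p = 0.0471). The high-coordinate end of Hoxb6 was at 16.7% to 22.4% in ND and 28.3% to 34.2% in NASH (12.03 points, SE 1.62, adjusted p = 0.0455). Both calls were lost without any 1 of the 8 libraries. Over the whole table those 8 fits called 1 to 3 end windows, against 238 with all libraries. Of the 66 end windows, 17 had an unadjusted limma p under 0.05 (14 higher, 3 lower), against 13.9% of all end windows. The low-coordinate end of Hoxb3 was at 31.6% ± 1.23 in ND and 39.4% ± 0.903 in NASH, without overlap. It was not called (7.74 points, limma adjusted p = 0.0506). The high-coordinate end of Hoxb3 differed by 8.83 points and the low-coordinate end of Hoxb6 by -0.894, both with overlapping groups (limma adjusted p = 0.262 and 0.610).

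Averaged over all positions of a locus, Hoxb was at 12.2%, 13.02%, 13.4% and 13.3% in ND and 17.9%, 16.9%, 18.6% and 18.4% in NASH. Hoxd was at 9.10% to 9.78% in ND and 10.1% to 11.5% in NASH. In both, the groups did not overlap, and the exact permutation p was 0.0286 (two-sided, the smallest possible), or 0.0714 adjusted over the 5 loci. With every exact 0 left out, the Hoxb difference of 4.998 points became 6.24 (exact p = 0.0286) and the Hoxd difference of 1.32 points became 0.720 (exact p = 0.486). Differences of 0.713 points in Hoxc, -0.436 in Dlx1-Dlx2 and -1.02 in Dlx3-Dlx4 had adjusted exact p-values of 0.286 each.

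Windows under 15% were also counted in each library. Of 103 Hoxb windows, 47 to 50 were under 15% in the ND libraries and 35 to 41 in the NASH libraries. Of 106 Hoxd windows the counts were 68 to 73 and 57 to 65. Neither pair of ranges overlapped (exact permutation p = 0.0286, adjusted 0.0714). The counts overlapped in Hoxc (61 to 67 and 55 to 68) and in both Dlx loci.

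Exact zeros were on average fewer in NASH in the Hox clusters, also in Hoxc, where 0 regions were called. Over all positions of the table, exact zeros made up 12.8% to 13.1% in the ND libraries and 12.3% to 12.96% in the NASH libraries, with overlap. In the Hoxb3 region they made up 50.5% to 53.3% of positions in the ND libraries and 34.9% to 44.2% in the NASH libraries. Over the Hoxb locus the range was 59.6% to 61.5% in ND and 51.9% to 58.5% in NASH. A truly unmethylated position and one without reads cannot be told apart here. Leaving every zero out also removes truly unmethylated positions, so those alternatives set no bound on the part of unread positions, which was not tested. Zeros amid methylated neighbours (median of the 10 nearest listed positions at 50% or more) made up 1.24% of levels in the Hoxb3 region. All 6 calls remained without them. At the low levels of these regions few zeros can meet that rule, so this alternative could change little and sets no bound either.

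Markers of liver cell types also differed. All 10 tested hepatocyte marker regions (of 13 listed) were higher in NASH by limma, and their mean ran from 33.5% to 35.5% in ND and from 44.7% to 50.9% in NASH. Over all gene regions 2.77% were called higher and 1.39% lower. The other marker lists had lower means in NASH. Macrophage markers were at 63.7% to 65.8% in ND and 62.1% to 63.3% in NASH (1 of 9 lower, Mpeg1), and lymphocyte markers at 76.0% to 78.3% and 73.75% to 75.6% (1 of 5 lower, Cd52). Neutrophil markers were at 74.97% to 76.6% and 72.9% to 74.1% (1 of 8 lower, Mpo). Stellate cell and fibroblast markers were at 67.7% to 68.6% and 65.8% to 67.8% (1 of 9 lower, Reln), cholangiocyte markers at 54.2% to 54.8% and 52.5% to 54.1% (1 of 6 lower, Muc1), and endothelial markers at 64.3% to 65.2% and 62.2% to 64.3% (0 of 6 called). In bulk tissue a different mix of cells and a different level within 1 cell type cannot be told apart, and the part of cell makeup in the Hox differences was not tested.

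From each of the HOX cofactor, retinoic acid, Polycomb, Trithorax and other developmental homeobox lists, 1 gene was called. The share over all gene regions was 4.17%, and whether any list differs from it was not tested. Among 59 tested regions of other developmental homeobox genes, whose median level of 11.3% is near that of the Hox and Dlx regions, 1 was higher and 0 lower, with a median difference of 0.168 points. It was Gbx2, a gene of the boundary between midbrain and hindbrain, which rose from 8.04% ± 0.607 to 14.3% ± 1.16 (limma adjusted p = 0.00440). Among 11 genes that supply or read retinoic acid, the signal that sets anterior Hox expression, 1 was higher. It was Rxra, a retinoid receptor, which rose from 31.96% ± 0.664 to 40.3% ± 1.37 (adjusted p = 0.00397). Of 7 HOX cofactor genes 1 was lower, Meis1, by -2.92 points (adjusted p = 0.0183).

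Of 23 Polycomb genes 1 was higher, Rbbp4, a histone-binding subunit (2.89 points, limma adjusted p = 0.0159). Of 13 Trithorax, demethylase and methyltransferase genes 1 was lower, Dnmt3l, a methyltransferase cofactor (-2.94 points, adjusted p = 0.0183). Prox1, a homeobox regulator of hepatocyte identity, was higher by 4.76 points (adjusted p = 0.00648). Median differences were -0.9145 points in the cofactor list, -0.428 in the retinoic acid list, -0.2445 in the Polycomb list and 0.0394 in the Trithorax list, beside -0.385 over all gene regions.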

How the data were processed

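The authors deposited percent methylation per CpG cytosine, each strand on its own line, in 1 table with 8 columns. The submitters' processing notes name FastQC and mm10. The aligner was not given in the sources used here, nor was the caller of methylation. Per the labels' protocols, frozen liver DNA was sonicated and treated with bisulfite before library preparation. Depth is unknown, so no intervals from reads were computed.

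The table was read for 15 placed chromosomes, of which chromosome 5 ends at position 117098872, and the remaining chromosomes were not analysed here. A further 326824 positions on 85 contigs were left out, as was 1 incomplete line. Positions lay 1 base above the CpGs of RefSeq promoters (99.5% of listed positions matched at that offset, 55.0% at 0), so 1 was subtracted. Each library's level for a region was averaged over its positions (at least 6) without weights. Gene regions, start and end windows, 1 kb windows and valleys were each fitted with limma 3.58.1 in R 4.3.3 over all features of the table, with a mean-dependent prior variance and Benjamini-Hochberg adjustment, and called at an adjusted p under 0.05. A model on read counts needs counts, which the table lacks. Locus means and window counts were compared by exact two-sided permutation over 70 assignments of the libraries. Python 3.11.15, numpy 2.4.6 and pandas 2.3.3 were used.

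Full values were given for called members, for the members of each locus with the largest difference and the highest and lowest level, and for the 3 largest non-overlapping windows in each direction (at least 20 positions). The members, gene lists and tests were chosen with earlier results of these data known. Alternatives covered zeros, flanks, window lengths, scale, prior variance, minimum positions, the replicate block and each library left out. Those for end windows and counts of unmethylated windows, and the values of regions outside the naming rule (Hoxb2, Hoxb5, Hoxb7, Hoxb8, Hoxc5, Hoxc6, Hoxc8, Hoxc13, Hoxd8, Hoxd9), were added after the data were seen. Apart from Prox1, the liver homeobox list is not reported here.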

Additional observations from a re-analysis of the deposited data

Results flagged for a closer look

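Over 76 groups of 4 libraries (33 regions and 5 loci in both diets), 6 had a highest or lowest library whose gap to the next took up more of the group's range than Dixon's 95% limit. Chance gives about 1 in 20 groups. Of these, 3 were ND library 4 as the highest, in the Hoxc13 region (13.3%), the Hoxd10 region (7.98%) and the Hoxc locus mean (9.58%). The Hoxc6 region had a low ND library 3 (10.3%) and a high NASH library 4 (14.6%), and the Hoxb2 region a high NASH library 3 (15.9%).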

How the results depend on the processing

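The 6 called regions remained the same 6 with doubtful zeros left out, on the logit scale and with constant prior variance, and were among 9 with 5 kb flanks. They also remained with at least 20 positions, a minimum that every member region already met. Fewer passed without flanks (2, Hoxd4 and Hoxb3), with every zero left out (2, Hoxb6 and Hoxb4) and without 1 library (2 to 6). Single windows went from 0 to 1 call with every zero left out (chromosome 11 from 96339001) and with 2 kb windows (from 96344001), both inside Hoxb3. The 2 called gene ends became 3 with constant prior variance, with at least 20 positions and with doubtful zeros left out, and 0 on the logit scale, with every zero left out and without any 1 library (0 to 0). With every zero left out, the Hoxc locus difference turned to -0.681 points, the valley difference of 0.228 turned to -0.761, and 6 CpG-dense windows reached 50%. Valleys under 10% covered 72 kb with a difference of -0.133 points, and valleys of at least 3 kb numbered 29. The cause was not tested where libraries or zeros were left out. Of the alternatives for single named regions and windows, 281 kept direction and side of the threshold and 33 lost the call. A further 10 changed sign without a call (Dlx1, Dlx2, Dlx3 and Hoxd1), and 0 reversed a call. All 33 lost calls fell on the 6 called regions. The other named regions and windows had no call to lose, so the 281 is no measure of how firm the calls are.

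Same-numbered libraries did not deviate together (correlations -0.0216, 0.0112, 0.0697 and -0.00439), so the numbers were not taken as pairs. With the replicate block, 1 region (Hoxb3) and 0 gene ends were called, and the smallest paired exact p is 0.125.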
